A study of Mus musculus with 14 samples.

Results

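Nucleolar ribosome assembly genes are those whose products transcribe, modify, cut and fold pre-ribosomal RNA in the nucleolus and build it into the subunits of the ribosome. The 40 mouse symbols of this group were listed by name, with no measured value in the rule though with earlier results of these data known, and a probe set was counted only where the array annotation gives it a single one of those symbols. By that rule 36 of the 40 genes had a probe set of their own. They held 66 of the 20380 probe sets with 1 symbol, and 36 of 12393 genes. Dkc1, Wdr3, Mrto4 and Nob1 had none and were not analysed here. The only probe set that names Mrto4 is shared with pseudogene copies of it.

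The series profiled the mouse small intestine with expression arrays, in 14 samples of total RNA that fall into 4 groups. Crypts and villi were isolated from 12-week-old C57BL/6 mice, 3 samples each, named here crypt K12, K21 and K41 and villus V12, V41 and V275 after their titles. Endoderm, the future epithelium, and mesenchyme, the future stroma and muscle, were separated by dissection from fetal intestine digested with collagenase at embryonic day 12 (E12), with 4 pools of each layer. Pool 1 of each layer came from 35 fetuses, and pools 2, 3 and 4 came from 10 to 12 fetuses each. For the fetuses, no strain is named in the labels. The labels give no allele or treatment for any sample. The deposited values lie in 2 tables that were normalized separately. One holds 8 arrays (all crypts, all villi and the 35-fetus pool of each layer) and the other holds the 6 arrays of the smaller E12 pools, so levels are not set against each other across the tables. Values are log2 intensities after RMA (robust multi-array average), 1 unit being a 2-fold difference. All groups are whole tissue fractions, in which fewer cells of a type and less RNA per cell cannot be told apart.

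A ribosome begins as a long ribosomal RNA precursor, transcribed in the nucleolus by RNA polymerase I. Small nucleolar ribonucleoproteins (snoRNPs) then guide its chemical modification and first cuts, and a long series of assembly factors folds it, adds the ribosomal proteins and releases the small and large subunits separately. Cells that grow and divide make many ribosomes. In the adult small intestine those cells lie in the crypts, while the villi are covered by non-dividing absorptive cells, and at E12 the whole gut tube is growing.

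The arrays carried the markers of their labels, and 1 array stood apart in its RNA controls. In the 8-array table the mean log2 intensity of 5 dividing-cell genes, Mki67 among them, was 8.20 to 8.61 in crypts and 5.96 to 6.62 in villi, and 9.93 in E12 endoderm. Enterocyte genes averaged 11.43 to 12.12 in villi against 6.4 to 6.58 in crypts, and T-cell and leukocyte genes 8.58 to 9.49 in villi against 6.5 to 6.66 in crypts. Crypt base and Paneth cell genes averaged 10.66 to 10.98 in crypts, 7.19 to 8.3 in villi and 6.82 in E12 endoderm. In the 6-array table the mesenchyme list averaged 5.90 to 6.52 in endoderm and 11.45 to 11.60 in mesenchyme. Red blood cell genes averaged 5.57 to 5.71 in endoderm and 8.78 to 8.89 in mesenchyme, and endothelial genes 4.62 to 4.65 and 7.77 to 7.99. RNA quality also differed between samples. The 3′ minus 5′ difference of the Actb control probe sets was 0.96 to 1.27 in crypts and 0.15 to 0.44 in villi, and that of Gapdh was 0.61 to 1.29 and 0.52 to 1.26. The E12 endoderm array of that table had 0.20 for Actb and 0.24 for Gapdh. E12 endoderm pool 2 had differences of 1.48 for Actb and 0.97 for Gapdh, where the other arrays of its table had 0.39 to 0.65 and 0.16 to 0.30. What part cell makeup or RNA quality has in the results was not tested.

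Promoter stretches are shown for a few members. Whether their letters go with the differences between crypts and villi was not tested. RefSeq promoter windows (GRCm38.p6, 250 bases before to 50 after the start of transcription) were available for 31 of the 36 measured genes, as 34 windows. Searched on both strands, CACGTG, the E-box bound by Myc with Max, was in 7 of the 34 (20.6%), against 7.15% of all 32851 windows in the table and 9.11% of the windows of genes on the array. CCGGAAGT, a site type of the ETS family, was also in 7 of 34 (20.6%), against 3.89% and 6.30%. AAGATGGCG, a YY1 site type, was in 1 (2.94%, against 1.40% and 2.31%), and TGCGCATGC, an NRF1 site type, was in none (against 1.52% and 2.51%). The stretches printed here lie upstream of the start, read 5′ to 3′ on the gene's strand, with the matched letters in capitals. The first pair carry the E-box. The other 5 carry the ETS letters, in Gar1 on the opposite strand.
Imp4 (chr1:34439683-34439738, + strand): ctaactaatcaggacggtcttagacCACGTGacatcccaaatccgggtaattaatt
Nop2 (chr6:125131798-125131853, + strand): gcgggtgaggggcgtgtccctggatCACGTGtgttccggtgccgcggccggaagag
Gar1 (chr3:129831408-129831465, - strand): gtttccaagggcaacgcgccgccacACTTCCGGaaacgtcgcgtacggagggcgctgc
Heatr1 (chr13:12395334-12395374, + strand): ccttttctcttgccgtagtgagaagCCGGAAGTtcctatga
Nhp2 (chr11:51619725-51619772, + strand): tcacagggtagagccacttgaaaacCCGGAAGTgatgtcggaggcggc
Nip7 (chr8:107056749-107056806, + strand): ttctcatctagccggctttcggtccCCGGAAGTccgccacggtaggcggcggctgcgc
Polr1c (chr17:46248055-46248112, - strand): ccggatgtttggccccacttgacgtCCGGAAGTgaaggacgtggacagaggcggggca
These letters are descriptions of sequence, and no binding was measured. The E-box windows belong to Imp4, Mybbp1a, Nle1, Nop2, Pes1, Tsr1 and Wdr43, of which Imp4 and Nle1 were not called between villi and crypts. In Mybbp1a, Nle1, Pes1, Tsr1 and Wdr43 the E-box lies after the start. The ETS windows belong to Ebna1bp2, Gar1, Heatr1, Nhp2, Nip7, Polr1c and Tsr1, of which Ebna1bp2 and Nip7 were not called.

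The first comparison asked how the genes differ between the villus and the crypt of the adult intestine. All 36 measured genes passed the filter on dim genes and all 36 had a lower mean in villi. The test called 29 of the 36 lower in villi and 0 higher (limma, Benjamini-Hochberg adjusted p under 0.05 over all 9961 genes tested), where 15.0% of all genes were called lower and 16.9% higher. At an unadjusted p under 0.05 the counts were 32 lower and 0 higher, with Ebna1bp2, Nip7 and Nle1 added. The median difference was -1.05 over the 36 genes and -0.00 over all genes. The called genes included 19 that were lower by at least 2-fold (7.01% of all genes). All 3 villi lay below all 3 crypts for 33 of the 36 (23.5% of all genes). With 3 samples a group, the number of arrays limits the precision, and nothing states whether crypt and villus samples of the same number came from the same mouse.

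**Figure D1:**
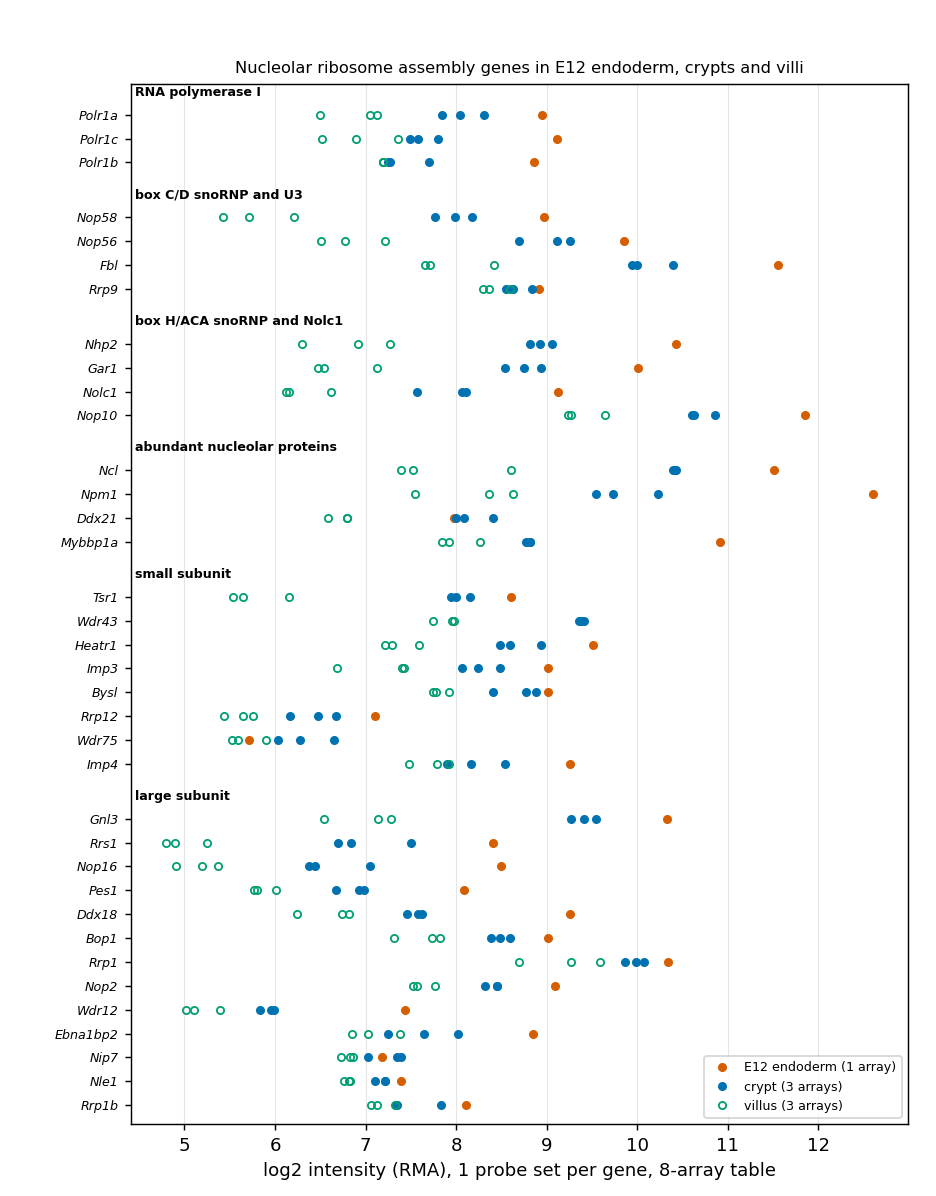
Log2 intensity (horizontal axis) of 1 probe set for each of the 36 measured genes (rows, by role) in the E12 endoderm array of the 8-array table (orange), the 3 crypts (blue) and the 3 villi (open green). For 29 genes the endoderm array lies right of every crypt and every crypt right of every villus.

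RNA polymerase I makes the ribosomal RNA precursor. Polr1a, its largest subunit, read 8.31, 8.04 and 7.84 in crypts K12, K21 and K41 and 7.13, 6.5 and 7.05 in villi V12, V41 and V275, an order kept for all values that follow. The groups did not overlap, and Polr1a was lower in villi by 2.25-fold (log2 difference -1.17, SE 0.21, limma adjusted p = 0.00542). Its other 2 probe sets had smaller differences, -0.49 and -0.28, and neither passed the test. Polr1c, a subunit shared with RNA polymerase III, was also lower (-0.70, adjusted p = 0.0483), and that call was lost without any 1 of the 3 crypts, without villus V41 and without villus V275. Polr1b, the second-largest subunit, read 7.25, 7.27 and 7.70 in crypts and 7.19 in each villus. Here the villi sat just under the lowest crypt, and the difference of -0.21 (95% interval -0.59 to 0.16) did not pass.

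Box C/D snoRNPs place methyl groups on the ribosomal RNA, and the U3 snoRNP, of the same class, is needed for its first cuts. The 3 core proteins measured had nearly equal differences. Nop58 read 7.99, 7.77 and 8.18 in crypts and 6.21, 5.71 and 5.43 in villi (4.58-fold lower, log2 difference -2.19, SE 0.22, adjusted p = 0.000545). Nop56, its partner, read 9.26, 8.69 and 9.11 in crypts and 7.21, 6.77 and 6.51 in villi (4.57-fold lower, adjusted p = 0.000595). Fbl, fibrillarin, the methyltransferase, read 10.00, 9.94 and 10.40 in crypts and 8.42, 7.66 and 7.71 in villi (4.55-fold lower, adjusted p = 0.00073). For each of the 3 the gap between the lowest crypt and the highest villus was larger than the range of either group. Rrp9, a protein specific to the U3 snoRNP, read 8.84, 8.55 and 8.63 in crypts and 8.30, 8.36 and 8.60 in villi. Its groups overlapped, and its difference of -0.26 (95% interval -0.61 to 0.09) did not pass.

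Box H/ACA snoRNPs convert uridine to pseudouridine in the ribosomal RNA. All 4 genes of this list passed, each by over 2-fold, with a median of -1.82. Nhp2, an RNA-binding core protein, read 8.82, 8.93 and 9.06 in crypts and 7.27, 6.30 and 6.92 in villi (4.30-fold lower, log2 difference -2.11, SE 0.24, adjusted p = 0.00086). Gar1, another core protein, was lower by 4.07-fold (adjusted p = 0.000613), and Nolc1, a nucleolar chaperone of snoRNPs, by 3.07-fold (adjusted p = 0.00142). Nop10, the smallest core protein, had the smallest difference of the list. It read 10.61, 10.86 and 10.63 in crypts and 9.64, 9.24 and 9.27 in villi, and was 2.49-fold lower (adjusted p = 0.00116).

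Read from its brightest probe set, Ncl, nucleolin, an abundant RNA-binding protein of the nucleolus, had the largest difference of all 36 genes. It read 10.40, 10.42 and 10.43 in crypts and 8.61, 7.39 and 7.52 in villi, 5.97-fold lower (log2 difference -2.58, SE 0.31, adjusted p = 0.000966). The crypts were nearly equal and villus V12 stood above the other villi. The other Ncl probe sets had differences of -2.43, -1.64 and -0.89 and passed when tested singly. Npm1, nucleophosmin, another abundant nucleolar protein, was lower by 3.15-fold (adjusted p = 0.00568), and Ddx21, an RNA helicase that acts on pre-ribosomal RNA, by 2.72-fold (adjusted p = 0.000753). Mybbp1a, a nucleolar protein that also binds transcription factors, read 8.82, 8.82 and 8.77 in crypts and 8.26, 7.92 and 7.84 in villi. It had the smallest difference of these 4, 1.74-fold (adjusted p = 0.00699), with no overlap.

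The small subunit list gathers factors of small subunit assembly from the early pre-ribosome to late maturation, and 7 of its 8 measured genes were lower in villi (median -0.98). Tsr1, a GTPase-like factor of late small subunit maturation, read 8.15, 8.0 and 7.94 in crypts and 6.16, 5.54 and 5.65 in villi, 4.74-fold lower (log2 difference -2.25, SE 0.19, adjusted p = 0.000308). Wdr43 and Heatr1, which act on the precursor as it is transcribed, were lower by 2.80-fold and 2.48-fold. Imp3, a U3 partner, was lower by 2.13-fold. Bysl, Rrp12 and Wdr75 had differences between -0.87 and -0.65. The call for Wdr75 was lost without crypt K12, crypt K21, villus V41 or villus V275, while its other probe set was lower by more (-1.92, adjusted p = 0.00041 when tested singly). Imp4, the partner of Imp3, read 7.90, 8.17 and 8.54 in crypts and 7.92, 7.48 and 7.79 in villi. Villus V12 was above crypt K12, and the difference of -0.47 (95% interval -0.95 to 0.01) did not pass.

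In the large subunit list 9 of 13 genes were lower, with a median of -0.79. Gnl3, nucleostemin, a nucleolar GTPase, read 9.54, 9.27 and 9.41 in crypts and 7.28, 6.54 and 7.14 in villi, 5.36-fold lower (log2 difference -2.42, SE 0.21, adjusted p = 0.000339). Rrs1, which helps bring the 5S ribosomal RNA into the particle, read 6.70, 6.84 and 7.5 in crypts and 5.25, 4.80 and 4.90 in villi, 4.08-fold lower (adjusted p = 0.000918). Those Rrs1 villus readings are dim: the villus means of Rrs1, Nop16, Wdr12, Rrp12 and Wdr75 lie below 5.78, the 30th percentile of the table.

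Pes1, Bop1 and Wdr12 form a complex that processes the large subunit RNA, and the 3 were lower by similar amounts, -1.0, -0.87 and -0.76. Nop16 (-1.47), the helicase Ddx18 (-0.95), Rrp1 (-0.79) and the RNA methyltransferase Nop2 (-0.79) also passed. Rrp1 lost its call without any 1 crypt and without villus V275. The 4 large subunit genes that did not pass were Ebna1bp2 (-0.55), Nip7 (-0.45, which passed without crypt K41), Nle1 (-0.37) and Rrp1b (-0.34). Rrp1b had the smallest difference of the list and read 7.83, 7.34 and 7.35 in crypts and 7.06, 7.33 and 7.13 in villi. Crypts K21 and K41 stood barely above villus V41.

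**Figure D2:**
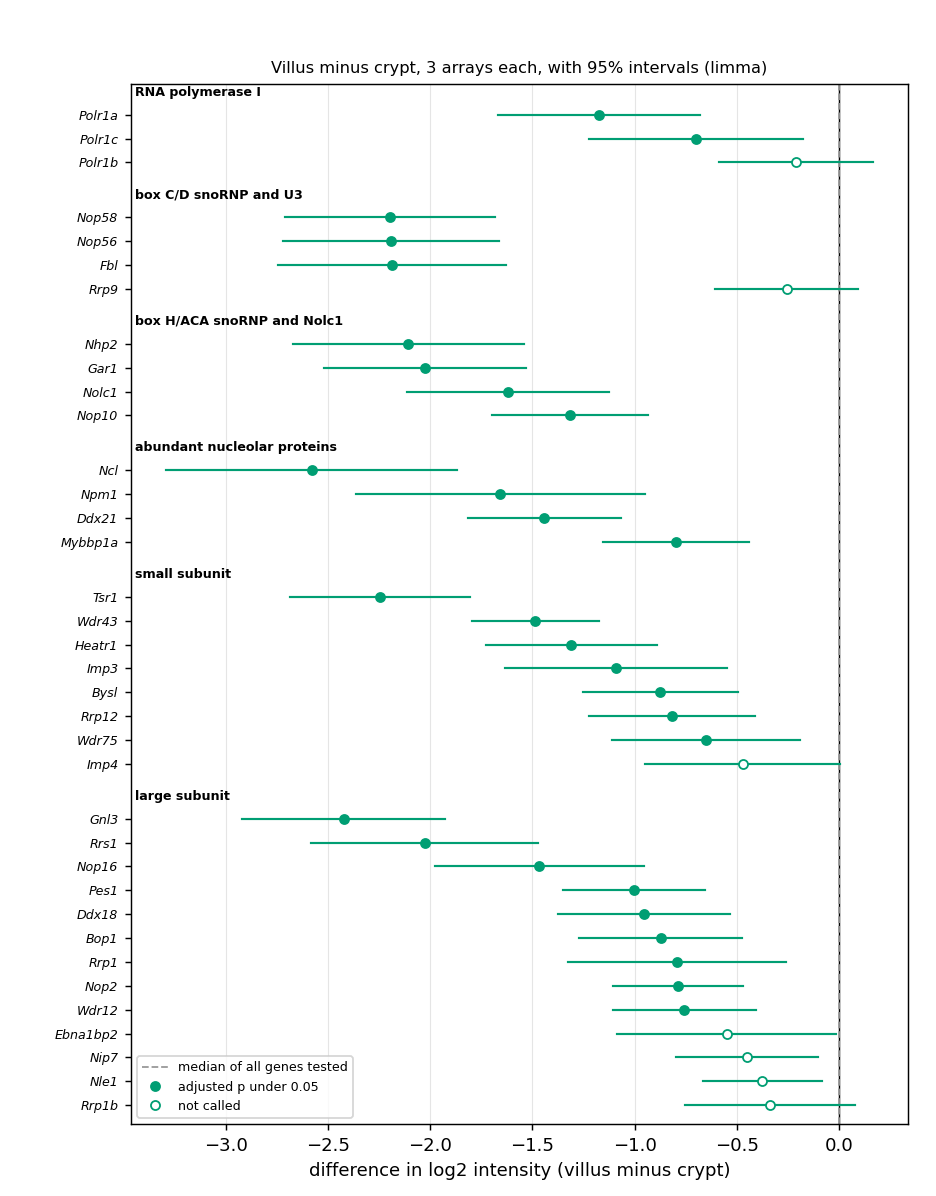
Villus minus crypt difference in log2 intensity (horizontal axis) with its 95% interval from limma for each of the 36 genes, by role, 3 arrays a group. Filled points passed at an adjusted p under 0.05 (29 genes), open points did not (7 genes), and the dashed line is the median of all genes tested.

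Probe sets of 1 gene did not always give the same call. Tested singly, 46 of the 60 member probe sets bright enough to test were lower in villi (15.1% of all probe sets), and the differences of all 66 lay between -2.58 and -0.02. Polr1c, Fbl, Nop56, Gar1, Nhp2 and Tsr1 were read from a probe set of a type that can match several transcripts (_s_at), and without such probe sets 27 of the 34 genes left were lower. Rrp1b was represented by its brightest probe set, which did not pass, while its other pair, at -1.06 and -0.82, did. Nip7 had a second probe set at -1.33 that passed. Polr1a, Heatr1, Pes1, Wdr12, Rrp1, Ddx18 and Nop16 had the reverse, a brightest probe set that passed and at least 1 dimmer one that did not pass or was too dim to test. Neither probe set of Polr1c passed when tested singly (-0.70 and -0.45, adjusted p = 0.0505 and 0.0508).

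Among the villi 1 array was high and 1 low for most members. Villus V12 had the highest of the 3 villus readings for 26 of the 36 genes and villus V41 the lowest for 25. Among the crypts, K41 was the highest for 18 genes and K12 the lowest for 16. In villi the dividing-cell markers had the same order, averaging 6.62 in villus V12, 6.33 in villus V275 and 5.96 in villus V41. In crypts they averaged 8.41 in K12, 8.20 in K21 and 8.61 in K41, so K21 and not K12 was the lowest. Without villus V12 the count lower in villi was 29, and leaving out any other array gave 26 to 28.

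Genes with related tasks were read from lists that hold none of the 36. Of 42 other large subunit assembly genes, 27 were lower in villi and 3 higher (median -0.78). Pa2g4 (-2.20) and Noc2l (-2.11) had its largest falls, while Eif6, which keeps the subunits apart until assembly is complete, rose by 1.34 and Efl1, the GTPase that removes it, by 0.87. Of 39 other small subunit assembly genes, 19 were lower (median -0.48), led by Esf1 (-2.01) and Emg1 (-1.54). The other RNA polymerase I list had 3 of 9 lower, with Tcof1 at -0.84 and Rrn3 at -0.76. Lists for snoRNP assembly and modification (Ruvbl1 -1.84, Trmt112 -1.43) and for the RNA exosome (Exosc1 -1.28, Dis3 -0.97) had 6 of 11 and 6 of 12 lower. The share called was thus 80.6% for the 36 genes, 64.3% for other large subunit factors, 48.7% for other small subunit factors and 33.3% for the other polymerase I genes; these shares were not tested against each other.

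Lists of other kinds were lower in villi as well. Cytosolic ribosomal proteins, the protein parts of the finished ribosome, had 32 of 43 lower and 1 higher (median -1.31, Rpl35 -2.10 and Rpsa -2.08, with Rps4l higher by 0.81). DNA replication genes had 23 of 32 lower (median -0.80, Mcm7 -2.05 and Rfc1 -1.99), and mitochondrial ribosomal proteins 21 of 74, with 1 higher (median -0.50, Mrpl19 -1.47 and Mrpl38 -1.44, with Mrpl27 higher by 1.01). The Myc and Max network, transcription factors of which Myc is known to raise ribosome production and the Mxd proteins to oppose it, was split. Myc itself was lower (-1.40, adjusted p = 0.000694), as was Mxd4 (-0.87), whereas Mxi1 (2.67), Mxd1 (2.00), Max (1.90), Mlx (0.80) and Mnt (0.50) were higher.

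**Figure D3:**
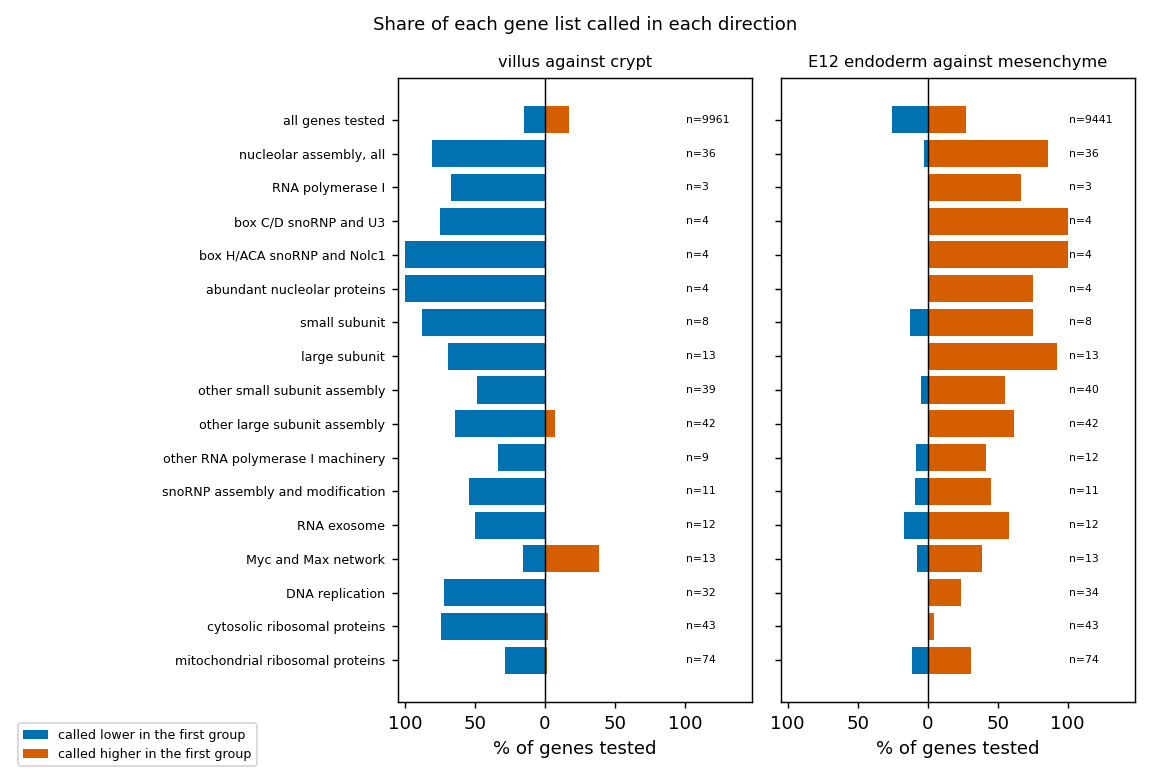
Percent of the genes tested in each list (rows) that were called lower (blue, leftward) or higher (orange, rightward) in villus against crypt (left panel) and in E12 endoderm against mesenchyme (right panel), with the number tested at the right of each row. The top row gives all genes tested, 15.0% lower and 16.9% higher in villi.

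The second pair of comparisons set the adult fractions against E12 endoderm in the 8-array table. That table has 1 endoderm array, which was assumed to vary as the replicated groups do, and the 3 comparisons among endoderm, crypt and villus share their arrays. Crypts were lower than endoderm for 18 of the 36 genes and higher for 0, where 15.1% of all genes were lower and 8.20% higher (at an unadjusted p under 0.05 from limma, 25 members lower and 0 higher). The median was -0.96 over the members and 0.05 over all genes, and 16 of the 18 were lower by at least 2-fold (11.6% of all genes). The Actb 3′ minus 5′ difference given above was 0.20 in the endoderm array against 0.96 to 1.27 in crypts, and its part in this count was not tested. The count was 10 without crypt K12 and 9 without crypt K21. Quantile normalization left 13 genes lower, with a median of -0.72, and moved the split of all called genes from 64.8% lower to 53.6% lower.

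The widest gaps to the crypts were those of 2 abundant nucleolar proteins. Npm1 read 12.60 in E12 endoderm, 9.55, 9.73 and 10.23 in crypts and 8.63, 7.55 and 8.36 in villi. The endoderm array was far above every crypt, with a log2 difference of -2.76 (adjusted p = 0.00413) beside -1.66 from crypt to villus. Mybbp1a, at 10.92 in endoderm, was also lower in crypts (-2.11, adjusted p = 0.000772). Nop16 (-1.88), Ddx18 (-1.70), Wdr12 (-1.51), Nhp2 (-1.50), Polr1c (-1.49) and Polr1b (-1.45) followed. On its other probe set Npm1 had -1.88 from endoderm to crypt and -1.98 from crypt to villus. The other called genes were Fbl, Gar1, Nop10, Nolc1, Heatr1, Imp4, Pes1, Nop2, Rrs1 and Ebna1bp2.

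Against the same endoderm array, villi were lower for 33 of the 36 genes and higher for 0 (22.1% of all genes lower, 17.0% higher; 34 and 0 at an unadjusted p under 0.05 from limma), with a median of -2.17 against 0.13 over all genes. The difference reached 2-fold for 31 (17.3% of all genes). Npm1 was 21.4-fold lower (-4.42), followed by Ncl (-3.67), Fbl (-3.63) and Nhp2 (-3.60). Rrp9, Wdr75 and Nip7 were not called, and Nle1 lost its call without crypt K21 or any 1 villus. For Wdr75 and Nip7 that rests on the probe set chosen. Wdr75 was represented by a dim one with a difference of -0.04, while its other probe set had -2.78. Nip7 had -0.37 and, on its other probe set, -3.05. The reverse was met in called genes with at least 1 other probe set that did not pass. Those were Polr1a (-0.42 and -0.51), Ncl (-0.70), Imp4 (-0.25), Rrp1b (-0.83) and Ebna1bp2 (0.22). Heatr1, Pes1, Wdr12, Ddx18 and Nop16 had another probe set too dim to test.

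Tested singly, 33 of 61 member probe sets were lower in crypts than in endoderm (14.5% of all probe sets) and 52 of 61 lower in villi (21.6%). Some probe sets of 1 gene disagreed in sign or call in the crypt comparison. Wdr75 differed by 0.61 on its brightest probe set and -0.87 on the other, and Nip7 by 0.08 and -1.72. Ebna1bp2 had -1.21 and 0.35, Wdr12 had -1.51 and 0.27, Ncl ranged from -1.81 to 0.19, Ddx18 from -1.70 to 0.08 and Heatr1 from -0.84 to 0.22. For Polr1a and Rrp1b the range was -0.88 to 0.07 and -0.97 to 0.23. Ddx21 and Wdr43 had 0.19 and 0.01 on the brightest probe set and -0.77 and -1.12 on the other. Calls also differed between the probe sets of Nop56, Nolc1, Imp4, Bysl, Pes1, Rrp1 and Nop16.

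In the lists of related tasks, crypts were lower than the endoderm array for 18 of 39 other small subunit genes (Pno1 -1.93, Utp4 -1.41), 15 of 42 other large subunit genes (Tex10 -2.06, Lyar -2.0), 4 of 10 other polymerase I genes (Polr1d and Polr1e, both -1.03), 8 of 11 snoRNP assembly genes (Naf1 -2.32, Ruvbl1 -2.10) and 4 of 12 exosome genes (Dis3 -2.59, Mtrex -1.78). DNA replication genes were lower for 30 of 33, mitochondrial ribosomal proteins for 8 of 74, and cytosolic ribosomal proteins for 2 of 43 with 1 higher. Villi were lower than endoderm for 32 of the 39 (1 higher, Riok3 at 1.2), 33 of the 42, 5 of the 10, 10 of the 11, 8 of the 12, 33 of the 33, 35 of the 74 and 31 of the 43, in the same order of lists. For mitochondrial and cytosolic ribosomal proteins, the share lower in crypts lay under the share of all genes given above. Their median crypt minus endoderm differences were -0.45 and -0.36, against 0.05 over all genes. In the Myc and Max network, Mlx (1.00) and Mlxipl (3.05) were higher in crypts than in endoderm, and in villi Myc was lower (-1.78) and Mlx, Mlxipl, Mxd1 and Mxi1 higher.

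Ordered by array, endoderm lay above every crypt and every crypt above every villus for 29 of the 36 genes, and the reverse order was met by 0 of them. Over all genes 12.8% had the first order and 10.2% the reverse. The exceptions were Rrp9, Ddx21, Wdr43, Wdr75, Imp4, Ebna1bp2 and Nip7. The 2 steps were then compared within each gene by a contrast added after the data were seen, villus minus crypt against crypt minus endoderm. It called 3 of the 36 members with a larger fall at the second step, Ddx21, Wdr43 and Tsr1. Another 2, Polr1b and Mybbp1a, had the larger fall at the first step (limma adjusted p = 0.0117 to 0.0412). Over all genes the contrast was called below 0 for 5.66% and above 0 for 9.25%, whether a gene rose or fell at each step. The 3 and 2 members are near those shares, so the calls describe single genes and not the group. Ddx21 showed the contrast plainly. It read 7.98 in endoderm, 8.0, 8.09 and 8.41 in crypts and 6.79, 6.58 and 6.80 in villi, so endoderm and crypts were close and villi apart. Wdr43 read 9.38 in endoderm, 9.36, 9.41 and 9.38 in crypts and 7.96, 7.75 and 7.98 in villi. On their other probe sets, as given above, both were lower in crypts than in endoderm without passing the test. Polr1b was the opposite, with 8.86 in endoderm and its adult groups close together.

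**Figure D4:**
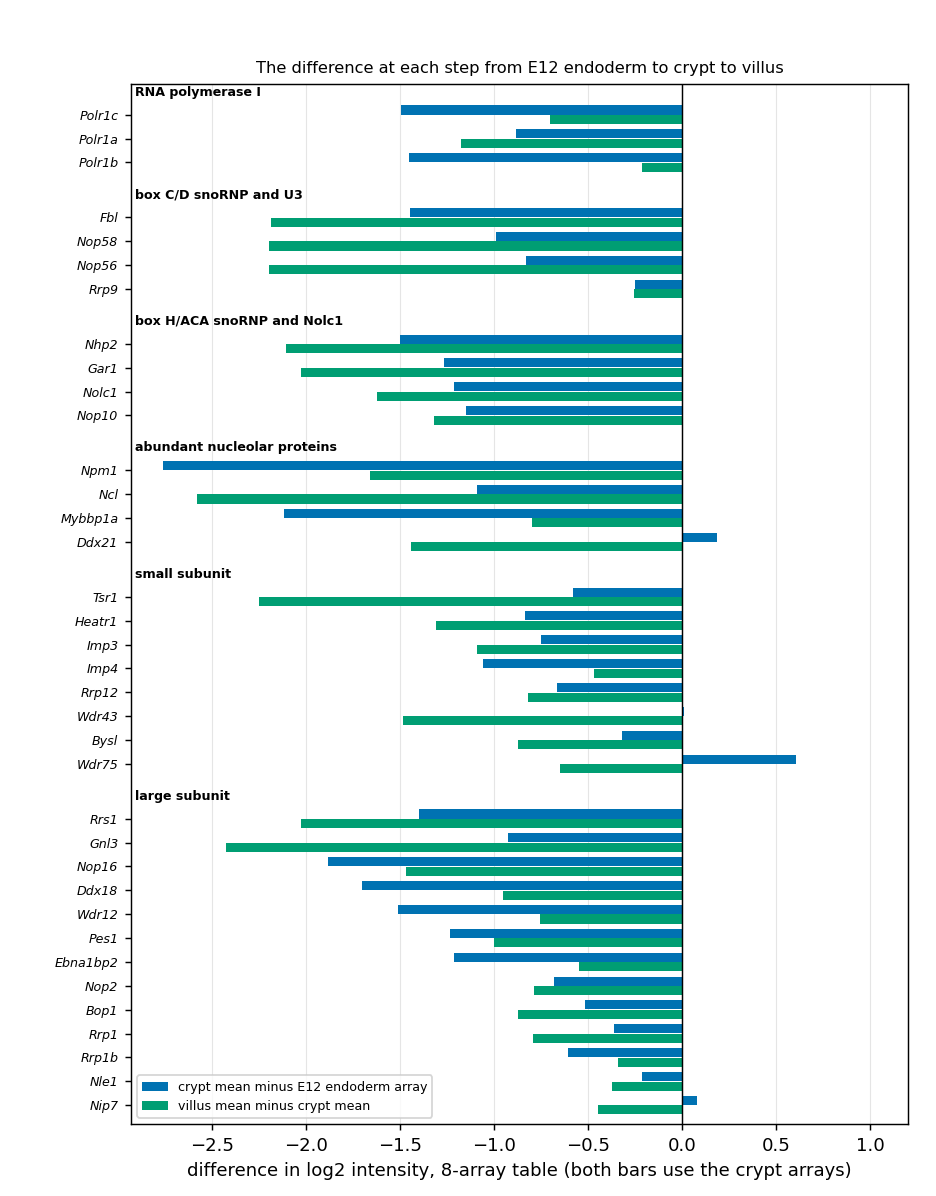
Crypt mean minus the E12 endoderm array (blue bars) and villus mean minus crypt mean (green bars) in log2 intensity for each of the 36 genes, by role, in the 8-array table; both bars use the crypt arrays and the first rests on 1 endoderm array. Ddx21 and Wdr43 have a difference near 0 at the first step, whereas Mybbp1a and Npm1 have their longer bar there. The step contrast did not call Npm1, and its other probe set, not drawn, had -1.88 and -1.98 at the 2 steps.

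The last comparison asked whether the 2 layers of the E12 intestine differ, in the 6-array table. The answer was a small difference in most members. Endoderm was higher for 31 of the 36 genes and lower for 1 (27.7% of all genes higher, 25.4% lower), with a median of 0.60 against 0.03 over all 9441 genes tested. The 3 endoderm pools lay above the 3 mesenchyme pools for 31 genes (32.9% of all genes). Polr1b alone reached 2-fold (8.80% of all genes). Without endoderm pool 2, the array whose RNA controls stood apart, 29 genes were higher, and leaving out any other pool gave 27 or 28. By list, 2 of 3 polymerase I genes, 4 of 4 box C/D, 4 of 4 box H/ACA, 3 of 4 abundant nucleolar, 6 of 8 small subunit and 12 of 13 large subunit genes were higher in endoderm.

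Polr1b read 7.52, 7.26 and 7.35 in mesenchyme pools 2, 3 and 4 and 8.52, 8.78 and 8.71 in endoderm pools 2, 3 and 4, a difference of 1.29 (SE 0.11, adjusted p = 1.9e-05). Gar1 read 9.04, 9.01 and 9.23 in mesenchyme and 10.08, 10.03 and 10.04 in endoderm (0.96, adjusted p = 4.4e-05). In both the layers were separated by much more than the spread of either. Rrp12, a factor of subunit maturation and export, read 6.47, 6.41 and 6.49 in mesenchyme and 7.73, 7.32 and 7.18 in endoderm (0.95, adjusted p = 0.00059). Endoderm pool 2 was its highest array. Over the 36 genes, that pool was the highest endoderm pool for 21 and the lowest for 11.

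Wdr75, which acts early in small subunit assembly, read 8.15, 7.92 and 8.42 in mesenchyme and 9.17, 8.98 and 9.05 in endoderm (0.90, adjusted p = 0.0006). The dim probe set that represents Wdr75 in the 8-array table differed by only 0.10 here and did not pass. Nop56 read 9.99, 9.94 and 10.08 in mesenchyme and 11.24, 10.68 and 10.78 in endoderm (0.90, adjusted p = 0.0011). Neither gene's layers overlapped, and pool 2 was again the highest endoderm array of both. Nop2 read 8.16, 7.99 and 8.0 in mesenchyme and 9.11, 8.80 and 8.88 in endoderm (0.88, adjusted p = 2e-04). Tsr1 read 7.96, 7.78 and 7.95 in mesenchyme and 8.66, 8.72 and 8.92 in endoderm (0.87, adjusted p = 0.00016). Imp4 read 7.75, 7.99 and 7.91 in mesenchyme and 8.78, 8.66 and 8.74 in endoderm (0.84, adjusted p = 0.00012). All 3 again kept the layers apart, and Imp4, not called between villi and crypts, was among the larger differences here.

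The remaining called genes were higher in endoderm by 0.23 to 0.83. Imp3 was the only member lower in endoderm. It read 8.94, 9.24 and 9.24 in mesenchyme and 8.82, 8.79 and 8.78 in endoderm (-0.34, adjusted p = 0.024), and it lost its call without mesenchyme pool 3 or 4 or endoderm pool 3 or 4. Polr1c (0.16), Npm1 (0.07), Bysl (0.07) and Nip7 (0.15) were not called. Npm1 was near the top of the scale in both layers, at 12.62 to 12.77 in mesenchyme and 12.63 to 12.82 in endoderm. Rrp1 (0.23), Ebna1bp2 (0.27) and Nle1 (0.25) had the smallest calls, with adjusted p = 0.042 to 0.047. Nop16 (0.45) lost its call without mesenchyme pool 2 or endoderm pool 4, Rrp1 without any 1 of the 6 pools, Nle1 without any but endoderm pool 2 and Ebna1bp2 without any but endoderm pool 4. With the pool number as a replicate block, Rrp1 (adjusted p = 0.0653) and Ebna1bp2 (adjusted p = 0.0603) were no longer called.

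Tested singly, 44 of 64 member probe sets were higher in endoderm and 1 lower (23.7% of all probe sets higher). A dimmer or second probe set did not pass for Polr1a, Nolc1, Ncl, Heatr1, Wdr75, Pes1, Rrp1 (-0.06), Ebna1bp2 (0.06), Ddx18 and Nop16, and for Nip7 a dimmer one was higher by 0.64. On those of Rrp1 and Ncl, endoderm pool 2 read 8.53 and 9.40, below mesenchyme at 9.19 to 9.24 and 10.18 to 10.26. Endoderm pools 3 and 4 lay above every mesenchyme pool on both. The probe sets that represent Rrp1, Ebna1bp2 and Nle1 did not pass when tested singly (adjusted p = 0.0572, 0.0546 and 0.0594).

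The 35-fetus pools give 1 further endoderm and mesenchyme array, in the other table and with no replicate. Endoderm was above mesenchyme for all 31 genes called in the 6-array table, where 95.3% of all genes called higher there were above. The median difference of the 31 was 0.70 in the single pair and 0.73 in the 6-array table. Over all genes called higher there, the medians were 0.64 and 0.67. Npm1 (-0.35) was the only member of the 36 below 0 in the pair, and Imp3 was at 0.21, opposite to its sign in the smaller pools. The sign for Npm1 depends on the probe set. On the one that represents it against crypts and villi, endoderm read 12.60 and mesenchyme 12.47.

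**Figure D5:**
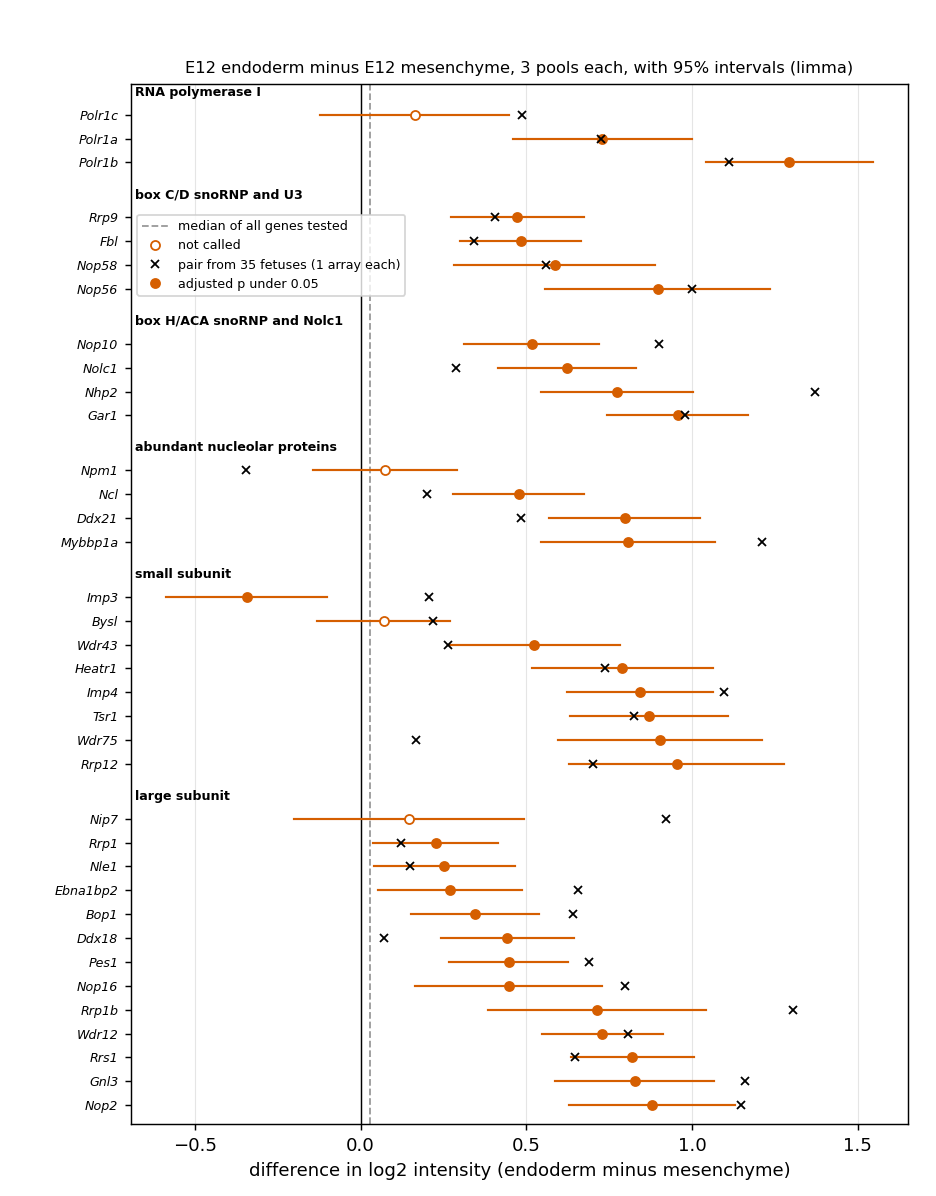
E12 endoderm minus E12 mesenchyme in log2 intensity (horizontal axis) for the 36 genes, by role: points with 95% intervals from limma are the 6-array table (3 pools a layer), and crosses are the single 35-fetus pair of the 8-array table. Imp3 alone among the points lies left of 0, and 31 of the points to the right are filled (adjusted p under 0.05).

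Other lists differed less between the layers. Cytosolic ribosomal proteins had 2 of 43 higher in endoderm (median 0.01), DNA replication genes 8 of 34 (median 0.12) and dividing-cell markers 0 of 5 (1 at an unadjusted p under 0.05 from limma), with list means of 10.38 to 10.42 in endoderm and 10.24 to 10.45 in mesenchyme. Other large subunit factors had 26 of 42 higher (median 0.47; Noc2l 1.24 and Mdn1 0.99) and other small subunit factors 22 of 40 (median 0.33; Riok2 1.00 and Rcl1 0.92), with Riok3 (-0.51) and Utp11 (-0.37) lower. Other polymerase I genes had 5 of 12 higher (Taf1c 0.82 and Tcof1 0.62), with Znrd1 lower (-0.50). The snoRNP assembly list had 5 of 11 higher (Naf1 1.38, Ruvbl2 0.46) and Trmt112 lower (-0.43), and the exosome list 7 of 12 higher (Exosc7 0.90, Exosc5 0.61) with C1d (-0.58) and Exosc10 (-0.40) lower. Mitochondrial ribosomal proteins had 23 of 74 higher and 8 lower (Mrps31 1.34, Mrps16 -0.40). Each of these lists had a share below the 86.1% of the 36 genes. These differences between lists were not tested. In the Myc and Max network 5 of 13 genes were higher in endoderm and 1 lower. Mlxipl (1.88, adjusted p = 0.000385), Mycn (1.51, adjusted p = 0.000567), Mnt (0.64), Mycl (0.48) and Mlx (0.35) were higher, Mxd4 was lower (-1.43, adjusted p = 7.1e-06), and Myc differed by -0.21 and did not pass.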

How the data were processed

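The log2 values are those the authors deposited, from RMA per the submitters' processing notes; no version of it is named in the labels. Probe sets were named from the platform annotation: a single symbol was given for 20380 of the 22690, 691 carried more than one, 1606 carried no symbol, and 13 control probe sets were left out. Each gene is read from its brightest probe set (by mean over the fitted arrays), and genes not above the table's 30th percentile (5.78 and 4.74) in at least 3 arrays were left out. Npm1, Ddx21, Wdr75, Rrp1b, Ddx18 and Nip7 are thus read from another probe set between the E12 layers than in the other comparisons. Differences were tested with limma 3.58.1 (R 4.3.3; lmFit and eBayes) over all genes, adjusted by Benjamini-Hochberg at 0.05, and the fit was tested on simulated data. Villi against crypts used the 6 adult arrays, and comparisons with endoderm all 8.

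Members and lists were chosen with earlier results of these data known. Values in every array are given for the largest and smallest villus-crypt difference of each role, the 8 largest of all 36 genes and the 8 largest between E12 layers, and for single genes that a comparison turns on. For villi against crypts, the 2 largest rises and falls among called genes of each pathway list are named; in the other comparisons pathway genes are examples. All called genes of the Myc network are named. Replicates are separate samples by label, and p-values measure only the spread between them. No pair of arrays was a copy. Deviations of E12 endoderm and mesenchyme pools of 1 number had correlations across genes of 0.211, 0.234 and 0.106 (pools 2, 3 and 4). Pools of unlike number had -0.298 to 0.129, the highest for endoderm pool 3 with mesenchyme pool 4. Pool 4 thus did not stand out, and the labels do not state a shared batch. Alternatives were scaling, probe set choice, dim filter, prior, samples in the fit, replicate block and leaving out each array. The fit of single probe sets and the contrast of the steps were added after the data were seen.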

Additional observations from a re-analysis of the deposited data

How the results depend on the processing

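Between villi and crypts the direction held for every member under every alternative run. The count lower in villi was 27 to 31 of those tested under other scaling, probe set, filter, prior and fit choices, and 26 to 29 leaving out 1 array. With the replicate block it was 17, and all genes called fell from 1496 lower and 1686 higher to 424 and 835. Crypts and villi share only the 2 numbers 12 and 41, so fewer samples inform that fit. Their correlations were 0.16 and 0.0685, where crypts and villi of unlike number had -0.1 to 0.0781. The 12 members no longer called were Polr1c, Npm1, Mybbp1a, Wdr75, Bysl, Rrp12, Pes1, Bop1, Wdr12, Nop2, Rrp1 and Ddx18, with blocked differences of -1.80 (Npm1, adjusted p = 0.0677) to -0.41 (Wdr75, adjusted p = 0.302). Without crypt K21, 925 and 1048 genes were called. Crypts against endoderm had 13 to 24 members lower under other choices and 9 to 22 leaving out 1 array, and 915 lower and 441 higher over all genes without crypt K21, against 1520 and 827. Signs turned there for genes uncalled in the main fit. Rrp9 turned under quantile normalization (0.060). With the median of probe sets, Polr1a (0.071), Ddx21 (-0.29), Wdr43 (-0.56), Wdr75 (-0.13) and Nip7 (-0.82) turned, and Nip7 was then called lower. With crypt and endoderm arrays alone, Wdr75 (-0.87) and Nip7 (-1.72) turned and were called lower, since another probe set was then the brightest. Wdr43 was -0.00665 to 0.021 leaving out 1 array, lowest without crypt K21. Villi against endoderm had 25 to 33 lower, and Wdr75 was -0.16 to 0.032 leaving out 1 array, turning without villus V275. No paired analysis was possible for either, because the groups share no number. Between the E12 layers 27 to 31 members were higher, 29 with the replicate block, which changed no other call than those of Rrp1 and Ebna1bp2, and Npm1 turned to -0.014 with all 8 E12 arrays. Where no cause is given, the cause was not tested. Few arrays and dim signals near the 30th percentile limit these values, most of all the single endoderm array.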
